A study of Mus musculus with 6 samples.

Results

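The genes described here are 42 type I interferon-stimulated genes, taken by symbol from a list of names. That list was chosen with earlier results of these data known. Each symbol matched 1 of the 36557 gene rows of the deposited count table, and all 42 were among the 17392 genes that passed the filter on low counts. RNA had been sequenced from the aortic arch together with the thoracic aorta of mice on a high-fat diet for 4 weeks. All 6 libraries came from Apoe-/- animals, which lack apolipoprotein E, clear lipoprotein cholesterol poorly and are prone to plaque. The 3 control libraries carried that deletion alone. The 3 knockout libraries were Apoe-/- MiR26b-/-, so they also lacked the gene of the microRNA miR-26b. The vessels were rinsed with buffer through the circulation before they were taken out, and the labels used here name no strain, age or sex, no cell type to which either deletion was limited, and no statement that each library is 1 animal. The p-values given here therefore measure the spread between these libraries, which may be in part technical.

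Type I interferons are secreted proteins that bind a receptor made of Ifnar1 and Ifnar2. The kinases Jak1 and Tyk2 then phosphorylate Stat proteins, Stat2 among them, which join Irf9 and bind a DNA element, the interferon-stimulated response element, in front of target genes. Those targets include sensors of foreign nucleic acid, proteins that block viral replication, and the conjugation system of the ubiquitin-like protein Isg15. Many of the same genes also respond to interferon gamma, and these counts cannot say which interferon, if any, acted.

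The libraries were of like depth, with deposited estimated counts that summed to between 51634139 and 54817547. Smooth muscle markers, which define the tissue, summed to at least 21432 CPM in each library (CPM is a count scaled to the size of its library, with TMM factors), and endothelial markers to between 1568 and 1995 CPM. Knockout replicate 3 stood apart from the other knockouts: on the first principal component of all tested genes (61.9% of variance) it lay at 0.97, where the other knockouts lay at 47.05 and 55.72 and the controls between -45.35 and -25.42. Results are therefore also given without it. The mature microRNA is not measured by these gene counts. Its host gene Ctdsp1, in which Mir26b lies, averaged 195 ± 3.65 CPM over the controls and 188 ± 6.84 CPM over the knockouts (SD, n = 3 libraries) and was not called (edgeR, adjusted p = 0.555), which does not check the deletion.

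The element bound by the Stat and Irf complex has a core of GAAA, any 2 bases, and GAAA again. It was searched on both strands in the RefSeq promoter windows of GRCm38.p6, which run from 250 bases before to 50 bases after each annotated start. Of the 42 genes, 32 had a window, and 15 of these (46.9%) held the core, against 1079 of 27025 genes (3.99%) with a window in the table. A second element, TTCNNNGAA, which Stat dimers bind, was found for 6 of the 32 genes (18.8%) and for 9.55% of all genes. A match is a description of the letters and does not show that a factor binds. The lines below show stretches around the match for genes on which the results turn, read 5′ to 3′ on the strand of the gene, with each match in capitals; a match on the other strand reads TTTC, any 2 bases, TTTC.

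Ifit1, chr19:34640779-34640838, plus strand: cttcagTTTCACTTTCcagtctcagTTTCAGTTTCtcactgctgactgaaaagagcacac
Ifit3, chr19:34583382-34583441, plus strand: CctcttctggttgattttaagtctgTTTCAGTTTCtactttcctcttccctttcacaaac
Ifit3b, chr19:34607778-34607837, plus strand: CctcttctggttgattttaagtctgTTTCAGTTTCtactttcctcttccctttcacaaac
Isg15, chr4:156200850-156200909, minus strand: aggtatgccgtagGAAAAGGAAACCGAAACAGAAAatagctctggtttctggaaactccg
Oas1a, chr5:120907505-120907564, minus strand: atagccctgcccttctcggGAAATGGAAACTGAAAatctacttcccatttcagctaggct
Bst2, chr8:71537562-71537621, minus strand: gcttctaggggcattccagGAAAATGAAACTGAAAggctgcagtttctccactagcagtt
Stat2, chr10:128270251-128270310, plus strand: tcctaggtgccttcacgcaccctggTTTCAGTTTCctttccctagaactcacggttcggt

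Ifit1 held 2 matches and Isg15 held 3 overlapping ones. The printed stretches of Ifit3 and Ifit3b, neighbours on chromosome 19, have the same letters; the lone capital at their left end closes a further match. All 15 genes with the core were called higher in the knockouts, with log2 differences between 0.47 and 2.16 (median 1.46). Of the 17 with a window but no match, 15 were called, with log2 differences between 0.21 and 2.01 (median 0.82). Over all tested genes 6.50% were called higher. Since 39 of the 42 genes were called, these counts do not set genes with the core apart. The ranges overlap widely: Irf7 and Oasl2, which rose strongly, had no match in the window.

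Interferon-stimulated genes were higher throughout the list in aortas without Mir26b. At an adjusted p under 0.05 (quasi-likelihood test of edgeR, Benjamini-Hochberg over all tested genes), 39 of the 42 rose and 0 fell, where 6.50% of all tested genes were called higher and 3.84% lower. The 3 others, Ifit2, Isg20 and Ifi27l2a, had log2 differences above 0 and an unadjusted p under 0.05, and neither DESeq2 nor limma-voom gave a member a difference below 0. The median log2 difference of the 42 was 1.21, or 2.31-fold, against -0.0033 for all tested genes. In 23 of the 42 the fold was at least 2, and in 8 it was under 1.5. All 3 knockout libraries lay above all 3 controls for 41 of the 42, and for 18.9% of all tested genes. Since the list was chosen with earlier results of these data known, the contrast with all tested genes is a description and not a test. In RNA from whole vessel, more cells of a type that expresses these genes and more RNA per cell cannot be told apart.

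**Figure D1:**
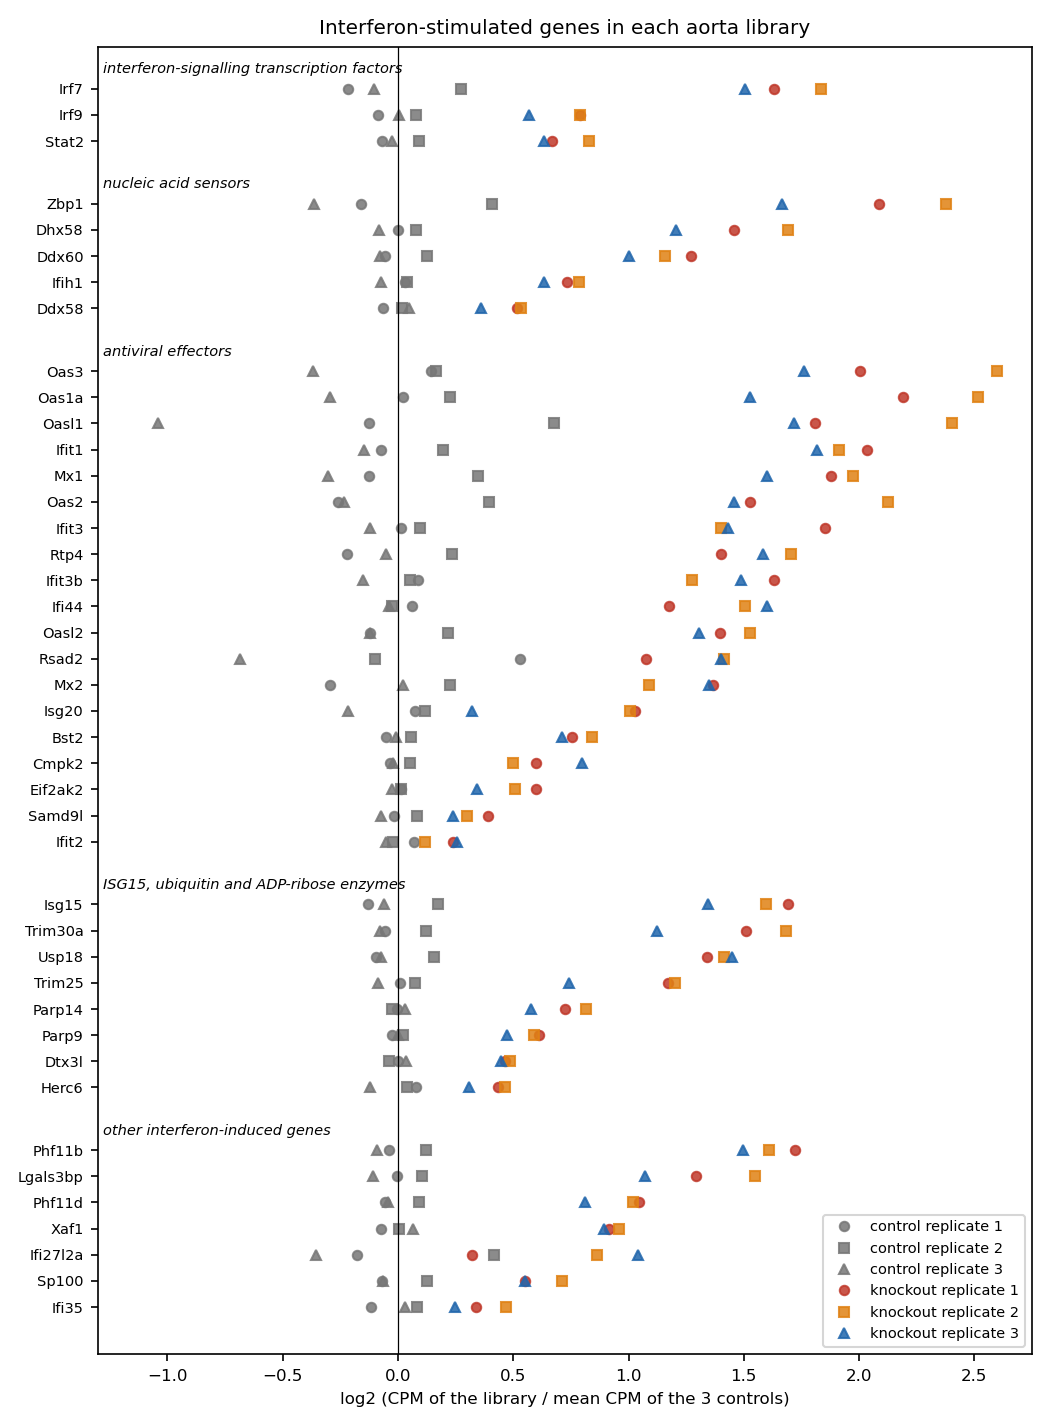
Each row is 1 of the 42 genes, grouped by role; the horizontal axis is the log2 ratio of a library's CPM to the mean CPM of the 3 controls, with grey points for controls and coloured points for knockouts. The knockout points lie to the right of all control points for 41 genes, and for Ifi27l2a knockout replicate 1 lies within the control range.

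The transcription factors of the pathway rose in all knockout libraries. Irf7, which amplifies interferon production and is itself induced by interferon, stood at 6.39, 8.95 and 6.90 CPM in control replicates 1, 2 and 3 and at 22.9, 26.5 and 21.1 CPM in knockout replicates 1, 2 and 3. The lowest knockout was well above the highest control. Its fitted rise was 3.17-fold (log2 1.66, SE 0.15, adjusted p = 0.00966). Stat2 stood at 33.9, 37.9 and 34.9 CPM in controls and at 56.6, 63.1 and 55.2 CPM in knockouts, a rise of 1.64-fold (adjusted p = 0.0107). Irf9, the DNA-binding partner of Stat2, went from 31.5 ± 1.80 to 51.9 ± 4.41 CPM (SD, n = 3 in each group), a rise of 1.65-fold. No knockout library of these genes fell within the control range. All 3 knockouts lay above all 3 controls for 18.9% of all tested genes, and 6.50% were called higher.

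All 5 sensors of nucleic acid rose, where 6.50% of all tested genes were called higher. Zbp1, which binds Z-form nucleic acid and can start necroptosis, was the sensor with the largest fold. It stood at 3.01, 4.46 and 2.61 CPM in controls and at 14.2, 17.4 and 10.6 CPM in knockouts, 4.20-fold (log2 2.07, SE 0.26, adjusted p = 0.0174). Its knockout values were uneven, with replicate 3 lowest. The cytosolic RNA sensor genes Ifih1 and Ddx58 encode MDA5 and RIG-I. Ifih1 stood at 15.03, 15.1 and 14.0 CPM in controls and at 24.5, 25.4 and 22.8 CPM in knockouts, 1.65-fold (adjusted p = 0.0100). Ddx58 went from 39.5 ± 1.59 to 54.7 ± 3.54 CPM, 1.39-fold, the smallest rise among the sensors. Dhx58, which encodes the regulatory helicase LGP2, rose 2.76-fold from 5.28 ± 0.294 to 14.6 ± 2.43 CPM, and the helicase gene Ddx60 rose 2.22-fold.

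Of the 19 antiviral effectors 17 rose, where 6.50% of all tested genes were called higher. The Ifit genes encode proteins that bind viral RNA and hinder its translation, and 4 of them lie within 99.3 kb on chromosome 19. Ifit1 had the lowest adjusted p among the 42 (0.00620): it stood at 5.33, 6.42 and 5.06 CPM in controls and at 22.9, 21.1 and 19.8 CPM in knockouts, 3.80-fold (log2 1.92, SE 0.12). The lowest knockout was 3.08 times the highest control, the widest such gap in the list. Ifit3 stood at 15.4, 16.3 and 14.0 CPM in controls and at 55.0, 40.2 and 41.1 CPM in knockouts, 2.98-fold, with knockout replicate 1 highest. Ifit3b rose 2.77-fold. Their neighbour Ifit2 did not pass the test: it stood at 30.1, 28.2 and 27.7 CPM in controls and at 33.9, 31.2 and 34.2 CPM in knockouts (log2 0.21, SE 0.06, adjusted p = 0.0795). The groups of Ifit2 did not overlap, but the lowest knockout was only 1.03 times the highest control.

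The oligoadenylate synthetase genes make the signal that activates RNase L, and Oas3 and Oas1a had the largest folds of the 42. Oas3 stood at 1.63, 1.65 and 1.14 CPM in controls and at 5.91, 8.92 and 5.0 CPM in knockouts, 4.48-fold (log2 2.16, SE 0.27, adjusted p = 0.0170). Oas1a stood at 4.31, 4.96 and 3.46 CPM in controls and at 19.4, 24.3 and 12.2 CPM in knockouts, 4.39-fold (adjusted p = 0.0177). Oas2 rose 3.33-fold to 23.6 ± 6.39 CPM, and knockout replicate 2 stood highest for these synthetase genes. The related gene Oasl2 rose 2.66-fold from 20.2 ± 2.84 to 53.9 ± 4.23 CPM. Oasl1 stood at 1.002, 1.75 and 0.533 CPM in controls and at 3.84, 5.79 and 3.598 CPM in knockouts, 4.02-fold with a wide error (log2 SE 0.43, adjusted p = 0.0387).

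Among the other effectors Mx1, a dynamin-like antiviral GTPase gene of which many laboratory mouse strains carry a defective allele, rose 3.54-fold from 3.38 ± 0.819 to 11.99 ± 1.57 CPM, and Mx2 rose 2.42-fold. Rsad2, which encodes viperin, stood at 8.09, 5.22 and 3.48 CPM in controls, an uneven set, and at 11.8, 14.9 and 14.8 CPM in knockouts. It rose 2.47-fold (log2 1.30, SE 0.29, adjusted p = 0.0429), and with the replicate number as a block its adjusted p was 0.0707. Cmpk2, the neighbour of Rsad2 on chromosome 12 and a mitochondrial nucleotide kinase gene, rose 1.56-fold from 12.3 ± 0.395 to 19.2 ± 2.04 CPM. Bst2, which tethers budding virus to the cell membrane, stood at 31.5, 33.9 and 32.4 CPM in controls and at 55.1, 58.5 and 53.5 CPM in knockouts, 1.71-fold with a small error (log2 SE 0.06, adjusted p = 0.00683).

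Eif2ak2, the gene of the kinase PKR, rose 1.40-fold, Samd9l 1.24-fold, Rtp4 2.96-fold and Ifi44 2.71-fold. Samd9l, a restriction factor of poxviruses, had the smallest rise of the called effectors, from 56.8 ± 3.10 to 70.4 ± 3.74 CPM. Isg20, an exonuclease gene, did not pass: it stood at 6.48, 6.68 and 5.31 CPM in controls and at 12.6, 12.4 and 7.69 CPM in knockouts (log2 0.82, SE 0.21, adjusted p = 0.0546). Knockout replicate 3 was close to the controls there, and without that library the log2 difference was 1.02 and Isg20 was called.

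All 8 genes of the Isg15, ubiquitin and ADP-ribose group rose, where 6.50% of all tested genes were called higher. Isg15 stood at 4.18, 5.15 and 4.37 CPM in controls and at 14.8, 13.8 and 11.6 CPM in knockouts, 2.93-fold (log2 1.55, SE 0.13, adjusted p = 0.00900). Usp18, which removes Isg15 from proteins and restrains signalling at the interferon receptor, stood at 4.08, 4.86 and 4.15 CPM in controls and at 11.04, 11.6 and 11.9 CPM in knockouts, 2.64-fold (adjusted p = 0.00683). The knockout libraries of Usp18 lay close together, those of Isg15 less so, and neither gene had groups that overlapped. Herc6, the mouse ligase for Isg15, rose 1.32-fold from 16.0 ± 1.149 to 21.1 ± 1.20 CPM. The ligase genes Trim25, which acts on RIG-I, and Trim30a rose 2.08-fold and 2.74-fold. Dtx3l and Parp9, whose products work as a pair, and Parp14 lie within 139.7 kb on chromosome 16 and rose 1.38-fold, 1.47-fold and 1.64-fold. Dtx3l stood at 24.8, 24.1 and 25.4 CPM in controls and at 34.2, 34.6 and 33.7 CPM in knockouts, the closest set of knockout values in the list.

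Of the 7 remaining genes 6 rose, where 6.50% of all tested genes were called higher. Phf11b rose 3.06-fold (adjusted p = 0.00683) and its neighbour Phf11d 1.95-fold. Lgals3bp, a secreted galectin-binding glycoprotein gene, stood at 49.3, 53.2 and 45.9 CPM in controls and at 121, 145 and 104 CPM in knockouts, 2.49-fold (adjusted p = 0.0100). Xaf1, a pro-apoptotic gene, stood at 10.4, 10.9 and 11.4 CPM in controls and at 20.5, 21.2 and 20.2 CPM in knockouts, 1.90-fold. Sp100, a nuclear body gene, rose 1.52-fold and Ifi35 1.28-fold. Ifi27l2a, a small mitochondrial protein gene, did not pass: it stood at 32.6, 49.3 and 28.8 CPM in controls and at 46.1, 67.2 and 76.0 CPM in knockouts (log2 0.77, SE 0.25, adjusted p = 0.0951). It was the only gene of the 42 whose groups overlapped, since knockout replicate 1 lay below control replicate 2.

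Levels of different genes were compared with the authors' rescaled TPM values, which are per transcript length. On that scale Ifi27l2a was by far the most abundant, at 240 ± 70.0 TPM in controls and 410 ± 103 TPM in knockouts, followed by Bst2 at 92.6 ± 2.41 and 160 ± 7.01 TPM. In controls Sp100 (46.2 ± 4.96 TPM) and Ifi35 (40.3 ± 2.35 TPM) came next with SD ranges that overlapped. Lgals3bp followed in controls at 35.8 ± 2.003 TPM and stood at 97.7 ± 19.4 TPM in knockouts, above Ifi35 (52.4 ± 4.38 TPM) and not apart from Sp100 (74.8 ± 4.58 TPM) by more than the SD ranges. The lowest levels were those of Oasl1 (0.994 ± 0.541 TPM in controls) and Oas3 (0.641 ± 0.130 TPM), which did not differ beyond their spread. Summed over the 42 genes the level was 765, 914 and 726 TPM in control replicates 1, 2 and 3 and 1419, 1615 and 1508 TPM in the knockouts.

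**Figure D2:**
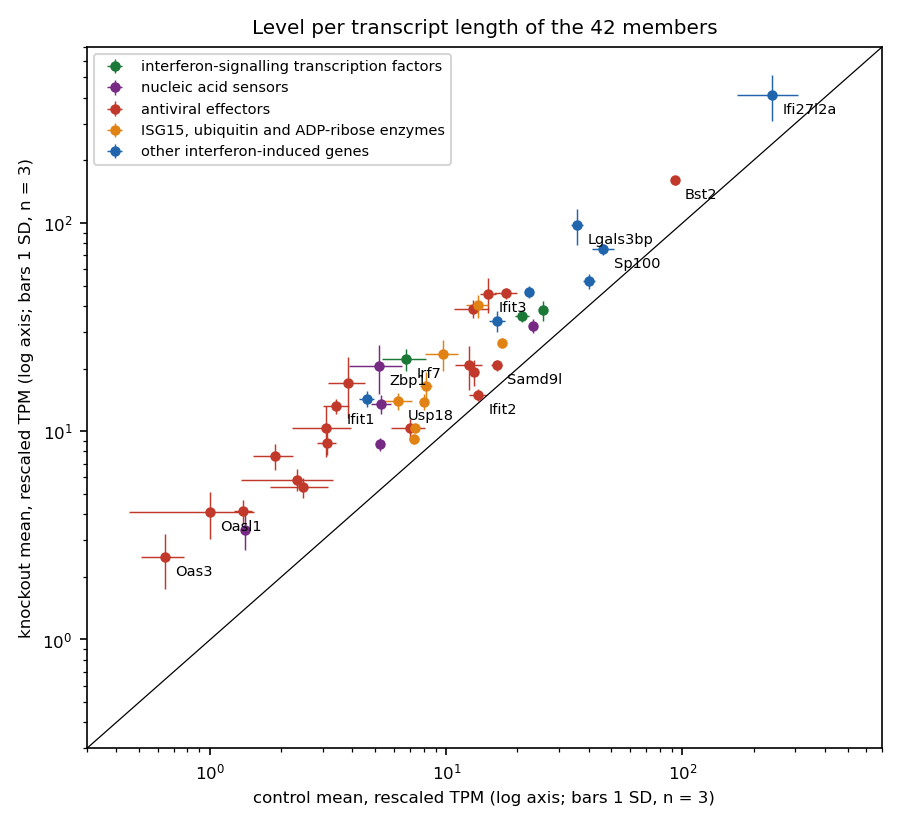
Mean rescaled TPM of each of the 42 genes in controls (horizontal) and knockouts (vertical), both on log axes, with bars of 1 SD over 3 libraries and the line of equal level. All genes lie above the line, from Oas3 at 0.641 TPM in controls to Ifi27l2a at 240 TPM, with Ifit2 close to the line.

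The rise was of like size in the 3 knockout libraries. Relative to the mean of the controls, their median log2 level was 1.17, 1.18 and 1.06 in knockout replicates 1, 2 and 3. For the 1092 other genes called higher the medians were 1.17, 1.27 and 0.64. The 3 knockouts lay within 0.5 log2 units of each other for 34 of the 42 genes (81.0%), against 48.9% of the 930 other called genes whose log2 difference fell within the range of the 42 and 71.2% of all tested genes. The median knockout spread was 0.27 log2 units both for the 42 and for all tested genes. Since a close set of knockouts favours a call, these shares are a description of called genes and carry no test. Knockout replicate 3 was still the lowest knockout for 32 of the 42 (76.2%), for 87.9% of the other called genes and for 43.1% of all tested genes. It was the highest for 5, which were Usp18, Ifi44, Cmpk2, Ifi27l2a and Ifit2.

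The 8 genes with a knockout spread over 0.5 log2 units were Oas1a (0.99), Oas3 (0.84), Ifi27l2a (0.72), Zbp1 (0.71), Isg20 (0.71), Oasl1 (0.69), Oas2 (0.67) and Trim30a (0.56). In all of these but Ifi27l2a, knockout replicate 3 was the lowest. The closest were Dtx3l (0.04), Xaf1 (0.07), Usp18 (0.11) and Bst2 (0.13). Among controls, replicate 2 was the highest for 33 of the 42, with a median of 0.09 log2 units above the mean of the controls, where replicates 1 and 3 had -0.05 and -0.08.

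Macrophage markers moved with the genotype in a less even pattern. All 10 of the listed markers rose; their summed level was between 626 and 804 CPM in controls and 3468, 3834 and 1470 CPM in knockout replicates 1, 2 and 3, and their median lay 1.88, 2.05 and 0.87 log2 units above the mean of the controls. None of the 10 was at 0. Beside the counts of called markers given here, 6.50% of all tested genes were called higher and 3.84% lower. Of 9 tested T and NK cell markers Klrb1c and Gzmb rose, and the summed level of the 10 listed overlapped between the groups (6.16 to 14.9 CPM in controls, 10.4 to 24.96 CPM in knockouts). Both genes that rose had few counts. Klrb1c averaged 0.102 ± 0.0487 CPM in controls and 0.365 ± 0.0956 CPM in knockouts. Gzmb averaged 0.210 ± 0.0522 CPM in controls and 0.597 ± 0.164 CPM in knockouts. Plasmacytoid dendritic cells are strong producers of type I interferon. Their defining markers Siglech and Ccr9 were low, at 1.56 to 3.02 CPM over the 6 libraries, and neither was called (adjusted p = 0.227 and 0.4998). Of the 5 tested markers of that list only Tcf4, which other cells also express, rose. The list summed to 101 to 109 CPM in controls and 117 to 155 CPM in knockouts, of which Tcf4 alone made up 93 to 99 and 110 to 147 CPM. The other tested markers of the list had log2 differences between -1.02 (Spib) and -0.05 (Pacsin1). Listed B cell markers summed to 60.0 CPM in control replicate 2 and to between 6.08 and 9.05 CPM elsewhere. Of 6 smooth muscle markers 3 fell, and their sum was 31632 to 36359 CPM in controls and 21432 to 25411 CPM in knockouts. Of 6 endothelial markers Cdh5 and Tie1 rose, 1.25-fold and 1.45-fold. Of 6 fibroblast markers 3 rose (3815 to 4411 CPM in controls, 5219 to 7003 CPM in knockouts), and neutrophil markers, 1 of 5 called, summed to 5.27 to 10.8 and 10.8 to 51.5 CPM. Fat markers summed to 1988, 1212 and 589 CPM in control replicates 1, 2 and 3 and to 367, 553 and 1548 CPM in knockout replicates 1, 2 and 3. Knockout replicate 3, which stood apart on the first principal component, thus had the highest sum of the knockouts. What part these cells have in the rise of the interferon-stimulated genes was not tested.

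**Figure D3:**
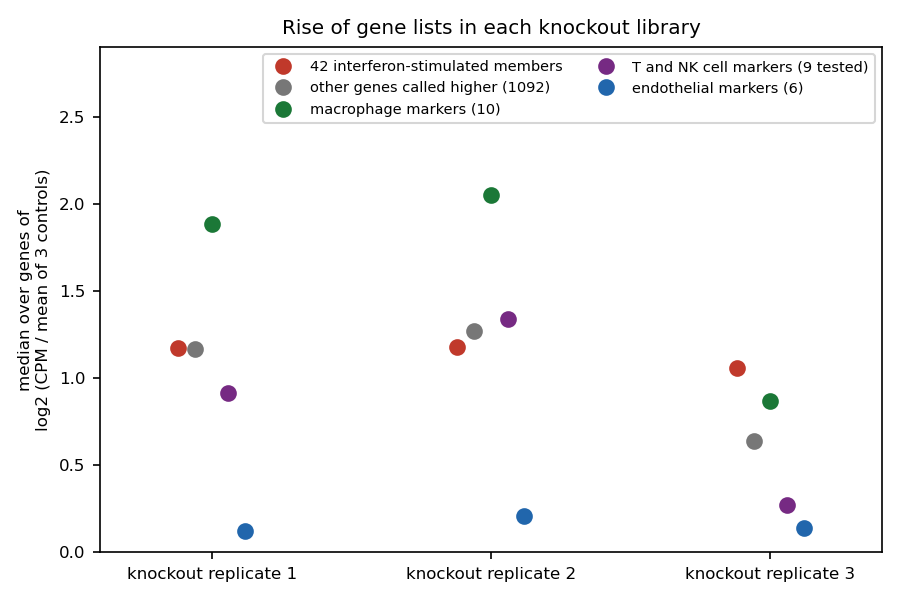
Median log2 ratio of CPM to the control mean in each knockout library (points), for the 42 interferon-stimulated genes, the other 1092 genes called higher, and lists of macrophage, T and NK cell, and endothelial markers. The 42 genes stay between 1.06 and 1.18 in all 3 libraries, while the macrophage markers go from 2.05 in replicate 2 to 0.87 in replicate 3.

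With 3 libraries a group, the calls depended on single libraries more than the sizes did. Without control replicate 1 or control replicate 3, edgeR called 0 of the 42 and 0 of all tested genes; 41 and 40 of the 42 then had an unadjusted p under 0.05, and the lowest adjusted p among them was 0.0576 and 0.0524. Limma-voom also called 0 there, and DESeq2 called 40 in each case, where it called 8.35% and 8.14% of all tested genes higher. Without control replicate 2, edgeR called 23 of the 42, and these were 23 of the 52 genes called higher in all (0.293% of those tested). Without knockout replicate 2 it called 19 of the 42 among 40 genes (0.227%). Without knockout replicate 1 it called Ifit1, Ifit3 and Ifi44 among 7 genes (0.0396%). Without knockout replicate 3, edgeR called 40 of the 42, among 3051 genes called higher (17.2%). The median log2 difference over the 42 stayed between 1.08 and 1.23 in these fits, and each of the 42 stayed above 0. Of the folds, those of Oasl1 (3.20 to 5.70), Rsad2 (2.08 to 3.19) and Oas3 (3.70 to 5.03) moved most, each by less than 1.5 times from its value with all libraries. In the fit to all libraries the 50 genes of lowest p held 18 of the 42, and the 500 of lowest p held 34, where 17392 genes were tested. Since the list was chosen with earlier results of these data known, these counts are a description and not a test.

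**Figure D4:**
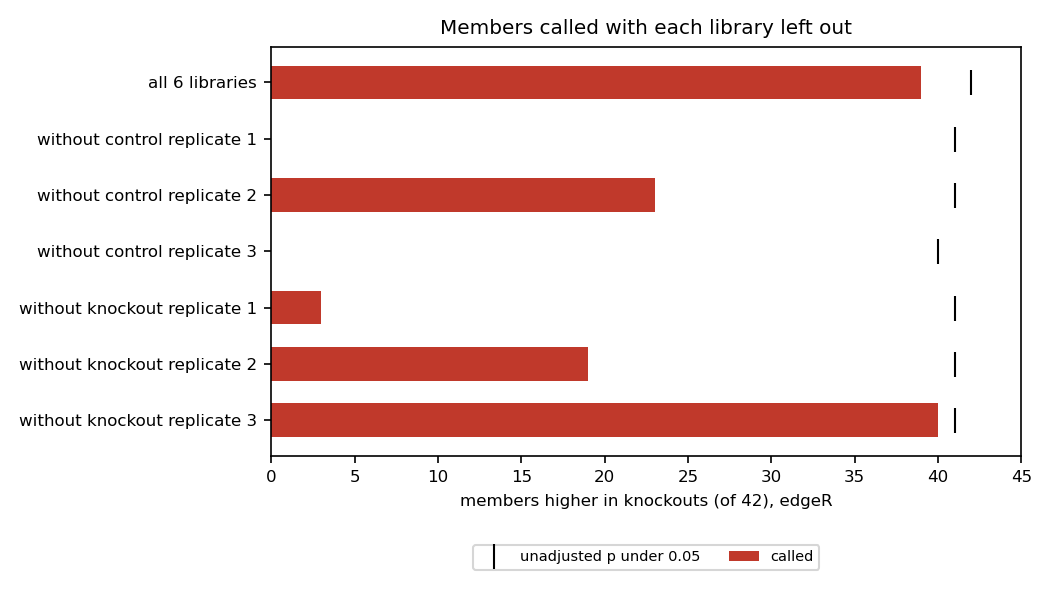
Bars give how many of the 42 genes edgeR called higher in the knockouts with all 6 libraries (39) and with each library left out (0 to 40); ticks give how many had an unadjusted p under 0.05 (40 to 42).

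The wider pathway was measured with lists of its other parts, which overlap with none of the 42. Of the 14 interferon genes listed, none passed the filter on low counts. Ifnb1 had 1 count in knockout replicate 2 and 0 counts in the other libraries, and of the 8 type I alpha and related genes Ifna1, Ifna4, Ifna5, Ifna12 and Ifna13 had 0 counts in every library. Ifna2 and Ifna11 each had 1 count in knockout replicate 3, and Ifnab had 1 count in knockout replicate 1. The other libraries had 0 counts for these genes. A count of 0 allows a level of up to 0.0576 CPM (3 counts in a library, counting error only), so transcription below that was not detectable at this depth. Ifng had 4, 5 and 0 counts in controls and 7, 1 and 0 in knockouts. Neither Ifnl2 nor Ifnl3 had a count, and Ifne and Ifnk had at most 2 in any library.

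Of 6 receptor chains 1 was called, where 6.50% of all tested genes were called higher. It was the interferon gamma receptor gene Ifngr1, which rose 1.32-fold (98.7 ± 0.692 to 130 ± 12.1 CPM, adjusted p = 0.0325). The type I receptor gene Ifnar1 stood at 60.4, 56.4 and 54.1 CPM in controls and at 74.0, 77.7 and 63.8 CPM in knockouts, and did not pass (log2 0.34, SE 0.09, adjusted p = 0.0540). Ifnar2 likewise did not pass (log2 0.57, SE 0.15, adjusted p = 0.0591), nor did Il10rb (0.74, adjusted p = 0.0505) or Ifnlr1 (0.52, adjusted p = 0.156). All 3 knockouts lay above all 3 controls for Ifngr1, Ifnar1, Ifnar2 and Il10rb, 4 of the 6, and for 18.9% of all tested genes. Ifnar1, Ifnar2 and Il10rb each passed with library size alone as the scaling, with DESeq2 and with the replicate number as a block. Ifngr2 had a log2 difference of 0.03 (adjusted p = 0.853).

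Among 8 mediators outside the 42, 2 rose and the others were not called, where 6.50% of all tested genes were called higher. Irf1 rose 1.41-fold (adjusted p = 0.0151), with knockouts at 59.7, 58.0 and 54.2 CPM. Irf5, a factor of myeloid cells, rose 3.28-fold with knockouts at 27.7, 37.7 and 14.1 CPM; its fold, unlike that of Irf1, rested on libraries that differed widely. Irf8, another myeloid factor, did not pass (log2 1.77, SE 0.49, adjusted p = 0.0649). The kinase genes Jak1, Jak2 and Tyk2 and the factors Irf2 and Irf3 had log2 differences between -0.10 and 0.22, none of which passed.

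In the list of sensors and adaptors that lead to interferon production, 3 of 11 tested genes rose and the others were not called. Over all tested genes 6.50% were called higher and 3.84% lower. The 3 that rose were Sting1 (2.72-fold, knockouts at 40.6, 39.5 and 19.3 CPM), the DNA sensor gene Cgas (1.78-fold) and the endosomal RNA receptor gene Tlr7 (2.44-fold). The adaptor and kinase genes Mavs, Tbk1 and Traf3 had log2 differences of -0.07, 0.03 and -0.09 and were not called. The endosomal receptor genes Tlr9 and Tlr3 and the adaptor genes Myd88 and Ticam1 were not called either. Their log2 differences were 1.44, 0.28, 0.57 and 0.15 (adjusted p = 0.115, 0.145, 0.0573 and 0.272). All 3 knockouts lay above all 3 controls for 7 of the 11 tested genes, these among them, and for 18.9% of all tested genes. Of 9 negative regulators 4 rose: Socs3 (4.00-fold), Samhd1 (1.53-fold), Trex1 (1.48-fold) and Adar (1.34-fold). Ptpn11 fell by 0.28 on the log2 scale. Socs1, the inhibitor of Jak kinases, did not pass (log2 0.62, SE 0.16, adjusted p = 0.0532). Socs3 was uneven, with knockouts at 70.1, 61.7 and 21.6 CPM against 14.99, 12.5 and 10.9 CPM in controls.

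Of 26 further interferon-induced genes that are not among the 42, 15 rose, where 6.50% of all tested genes were called higher. The other 11 were not called, and the median log2 difference of the 26 was 0.54. The largest rise was that of Oas1g, 5.33-fold from 1.31 ± 0.429 to 6.99 ± 2.30 CPM. Slfn8, which has 2 rows of equal values, rose 2.95-fold, Slfn9 1.98-fold, Ifitm3, which blocks entry of virus at membranes, 1.88-fold, Slfn5 1.84-fold and the class I transactivator gene Nlrc5 1.72-fold. Uba7, the activating enzyme for Isg15, rose 1.70-fold, while Ube2l6, its conjugating enzyme, did not pass (log2 0.52, adjusted p = 0.0558). Oas1b (1.57-fold), Zc3hav1 (1.49-fold), Parp10 (1.47-fold), Trim21 (1.42-fold), Parp12 (1.39-fold), Trim34a (1.38-fold), Tdrd7 (1.20-fold) and Pml (1.18-fold) made up the rest of the called genes. Parp10 and Trim34a were as even as the closest of the 42, with knockout ranges of 0.02 and 0.05 log2 units. The other 10 that did not pass had log2 differences between 0.05 (Znfx1) and 1.21 (Ifitm1).

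**Figure D5:**
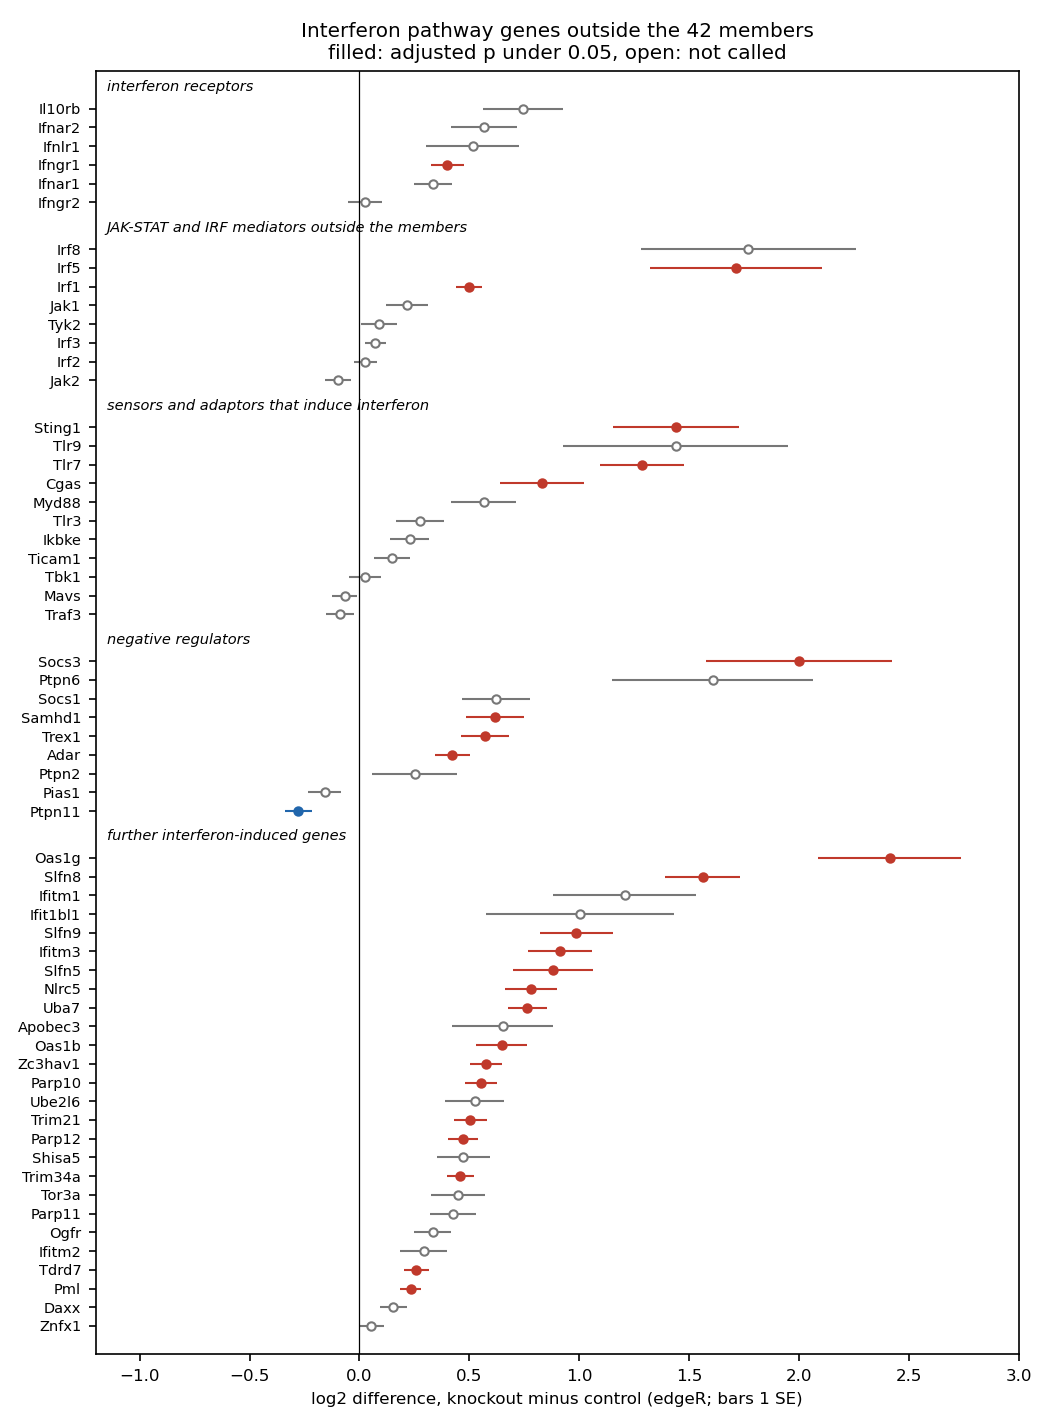
Fitted log2 difference, knockout minus control, with bars of 1 SE, for the tested pathway genes outside the 42; filled points passed an adjusted p under 0.05 and open points did not. Irf1 and most further interferon-induced genes lie to the right of 0, Jak2, Mavs and Traf3 lie near 0, and Ptpn11 is the called gene to the left.

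Some members share sequence with a near copy, so the split of their reads is uncertain. In the GENCODE mouse release used here, 61.8% of the 31-base words of Ifit3 transcripts also occur in Ifit3b; for Oas1a 68.7% occur in Oas1g, and for Phf11b 62.9% occur in another gene, most often Phf11a. The summed level of Ifit3 and Ifit3b was 18.9 ± 1.43 CPM in controls and 55.7 ± 9.41 CPM in knockouts, a ratio of 2.94. Oas1a and Oas1g together went from 5.55 ± 1.13 to 25.6 ± 8.31 CPM, a ratio of 4.61. The groups did not overlap for either sum, so these rises do not rest on how the reads were split within the pair. Dtx3l and Parp9 overlap at their ends on opposite strands of chromosome 16 (35926511 to 35939151 and 35938470 to 35972605, GRCm38) and share 7.51% and 8.54% of their words; reads in the overlap cannot be assigned without strand.

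The 42 genes lie on 15 chromosomes, and 20 of them lie in 8 groups with gaps under 1 Mb. Sp100 (chromosome 1, 85649988 to 85709998, GRCm38, plus strand) is the only one on the chromosome of Mir26b (74394310 to 74394394), at a distance of 11.3 Mb. Whether genome carried along with the deleted allele has a part in the change of Sp100 was not tested. The other 41 are on other chromosomes.

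MicroRNAs lower the level of transcripts whose 3′ untranslated region pairs with their seed. The mature miR-26b has bases 2 to 8, its seed, in capitals here, and the members with a full 8-base match are shown with the match in capitals, because they are the candidates for direct pairing by this rule.

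miR-26b-5p: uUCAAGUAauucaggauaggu
Herc6 site: aaaggatttTACTTGAAttgcacagt
Ifih1 site: ttcttaaaaTACTTGAAgcattccat

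Only these 2 of the 42 held the 8-base site in their longest annotated 3′ untranslated region (4.76%), against 4.18% of 21039 protein-coding genes. With 7-base matches included, Ddx60 and Parp14 were added, which makes 4 of 42 (9.52%) against 18.3% of all. Herc6 and Ifih1 rose 1.32-fold and 1.65-fold, and Ddx60 and Parp14 rose 2.22-fold and 1.64-fold. Whether loss of pairing with miR-26b has a part in any of these rises was not tested. The search covers letters only and says nothing of pairing in the tissue.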

How the data were processed

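RNA sequencing of 6 mouse aorta libraries, 3 per genotype, was grouped by genotype as labelled. The submitters' processing notes name kallisto 0.46.2, Trim Galore 0.6.5, FastQC 0.11.8 and the build GRCm38; use of strand is not given in the sources used here. The authors deposited estimated counts per gene, which are not whole numbers and look divided by 1 constant per library, and TPM values rescaled between libraries, used here as a signal. Columns with no matching sample numbered 0.

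Estimated counts were rounded. Genes passing filterByExpr at a minimum count of 10 were fitted together by edgeR 4.0.16 (R 4.3.3), after TMM scaling; a call is an adjusted p under 0.05. The standard error is the log2 difference over the root of F. Totals were between 51634139 and 54817547 per library, which limits genes near 0 CPM. Replicates differed by more than sampling noise (mean chi-square per gene of at least 11.5). The fit was tested on simulated counts.

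The members and the lists of pathway and marker genes were chosen with earlier results of these data known. One listed pathway gene is not reported here. All members are named; pathway genes are named where called, or as ligands, receptors or main mediators. Alternatives used DESeq2 1.42.0, limma 3.58.1 (voom, and log2 of TPM plus 1 or 0.1, with TPM of at least 1 in 3 libraries), other scaling and filters, a replicate block, removal of the constant, summed rows of 1 symbol and omission of each library. Positions and 3′ untranslated regions came from GENCODE mouse release M21, promoters and the microRNA from RefSeq; promoter windows were given for 32 members and not for Dhx58, Ifi27l2a, Mx1, Mx2, Oas2, Parp14, Parp9, Rtp4, Usp18 and Zbp1.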

Additional observations from a re-analysis of the deposited data

How the results depend on the processing

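The 42 genes kept a log2 difference above 0 under every alternative run. The count called higher, 39 in the edgeR fit to all libraries, was between 37 and 41 under the other scalings, count filters, DESeq2, limma-voom, TPM with a low-value filter, removal of the scaling constant and summed rows, and 21 with log2(TPM + 1) and no low-value filter, which tests 25886 genes. Over omissions of 1 library it was between 0 (without control replicate 1 or 3) and 40 (without knockout replicate 3); 0 were called lower in every fit. Over all genes, 1131 were higher and 667 lower; these were 2086 and 1357 with DESeq2, 559 higher with limma-voom, 671 and 359 with log2(TPM + 1), 725 and 378 with log2(TPM + 0.1), 94 and 71 with no low-value filter on TPM, and 0 to 3051 higher and 0 to 2028 lower over omissions of 1 library. By construction, omission of a library leaves fewer samples, and the TPM fit with no low-value filter tests more genes. DESeq2 and limma-voom were fitted to the same libraries and the same 17392 genes as edgeR. The cause of these shifts was otherwise not tested. With library size alone as the scaling, Isg20 and Ifit2 were called (adjusted p = 0.0455 and 0.0488) and the median of all genes moved to 0.04; 1476 genes were then higher and 447 lower. DESeq2 called Isg20 and Ifi27l2a (adjusted p = 0.00309 and 0.0125). Limma-voom did not call Ifi35, and the filtered TPM fits did not call Cmpk2 and Herc6. Ifngr2, never called, had a log2 difference between -0.0164 (without knockout replicate 1) and 0.10 over omissions, with -0.0027 without control replicate 2 and -0.0106 without knockout replicate 2.

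Same-numbered libraries deviated together with correlations of -0.09, 0.23 and 0.08, so the numbers are not treated as pairs. With the replicate block 39 of the 42 were again called, Isg20 in place of Rsad2, and 1295 genes were higher and 700 lower over all genes.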
